A study of Mus musculus with 6 samples.

Results

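The genes of the insulin-like growth factor (IGF) system described here were the 6 IGF-binding protein genes Igfbp2 to Igfbp7, the ligand gene Igf1 and the gene of the IGF2 clearance receptor, Igf2r. They were picked by name, with earlier results of these data known, and they make up 8 of the 54331 genes listed for each library. All 8 reached a mean of 1 TPM (a measure of transcript abundance relative to library size and transcript length) over the libraries and were therefore tested. RNA-seq was carried out at 10 days postinfection (dpi) on 6 wells, of which 3 belonged to the OSKA + 4OHT group and 3 to the OSKA − 4OHT group. The cells of both groups were mouse embryonic fibroblasts from E13.5 male embryos that carry an Oct4-EGFP transgene on a mixed background of C57BL/6, DBA/2 and ICR, and the embryos were pooled. The fibroblasts of both groups had received retroviruses for Oct4, Sox2, Klf4 and AKT-MER, a fusion of myristoylated AKT with a modified estrogen receptor. From 3 dpi, the OSKA + 4OHT wells were given 1 µM 4-hydroxytamoxifen (4OHT), which activates AKT-MER, and the OSKA − 4OHT wells were given the vehicle, ethanol. Because AKT-MER was present in both groups, an action of 4OHT on the cells through AKT-MER and any other action of it cannot be told apart. In the scheme of the culture, the wells were plated from 1 pool of transduced cells, so the p-values measure the spread between wells, which may be technical.

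IGF1 and IGF2 are secreted growth factors that signal through the IGF1 receptor, a tyrosine kinase upstream of PI3K and AKT. The IGF-binding proteins hold these ligands outside the cell, where they prolong the life of the ligands, keep them from the receptor or, after cleavage by proteases, release them. Fibroblasts of the embryo are a rich source of these proteins, and several of the proteins also act on cells without binding a ligand.

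The depth of the libraries is not kept in TPM. From genes with a single transcript, the relative depth was read as between 0.506 and 1 in the OSKA − 4OHT wells and between 0.809 and 0.927 in the OSKA + 4OHT wells, and these values are approximate. The levels of fibroblast markers add up to between 5837 and 7659 TPM in the OSKA − 4OHT wells and to between 3761 and 5029 TPM in the OSKA + 4OHT wells, and 2 of the 7 markers, Col1a2 and Pdgfrb, fell. Most of this sum comes from Vim and the collagen genes Col1a1 and Col1a2. Thy1 went the other way, from 198, 208 and 133 TPM without 4OHT to 222, 268 and 389 TPM with it (log2 fold change 0.69, adjusted p = 0.203, limma-trend), and the wells of Pdgfra (−0.12) and Fap (0.15) overlapped between the groups. The epithelial markers add up to between 52.4 and 137.3 TPM without 4OHT and to between 262.1 and 289.5 TPM with it, and 3 of the 6 tested markers, Cdh1, Epcam and Krt8, rose. The skeletal muscle genes Myod1, Myog and Myf5 were listed at 0 in every well, while Des had between 0.65 and 10.4 TPM without 4OHT and between 0.53 and 0.82 TPM with it, and all 6 genes of the list add up to at most 11.9 TPM in a well. In bulk RNA, fewer cells of a type and less RNA per cell cannot be told apart.

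The groups were compared with limma-trend (log2(TPM + 0.5) as the response), and a gene passed when its p-value, adjusted over 15382 genes by the Benjamini-Hochberg method, was under 0.05. Of the 8 genes, 3 rose in the OSKA + 4OHT group (Igfbp2, Igfbp5 and Igfbp6) and 2 fell (Igfbp7 and Igfbp4). Among all tested genes, 5.49% passed, 3.52% in the upward and 1.97% in the downward direction. Of the 5 that passed, 4 also differed by more than 2-fold, Igfbp2, Igfbp5 and Igfbp6 upward and Igfbp7 downward, which holds for 2.87% and 1.37% of all tested genes in these directions. Igfbp3, Igf1 and Igf2r did not pass. The wells of the 2 groups did not overlap for any of the 8 genes, whereas this held for 28.2% of all tested genes. The median log2 fold change of the 8 genes was 0.11, beside 0.14 over all tested genes. With the trimmed mean of log ratios as the scaling, 457 genes passed upward and 481 downward, against 542 and 303 on the deposited scale, and the same 5 of the 8 genes passed. The genes beyond 2-fold depend on the scaling, since Igfbp6 had a log2 fold change of 0.89 with the trimmed mean and 0.95 with quantile scaling, and Igfbp4 had −1.02 with the trimmed mean and −0.997 with quantile scaling.

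**Figure D1:**
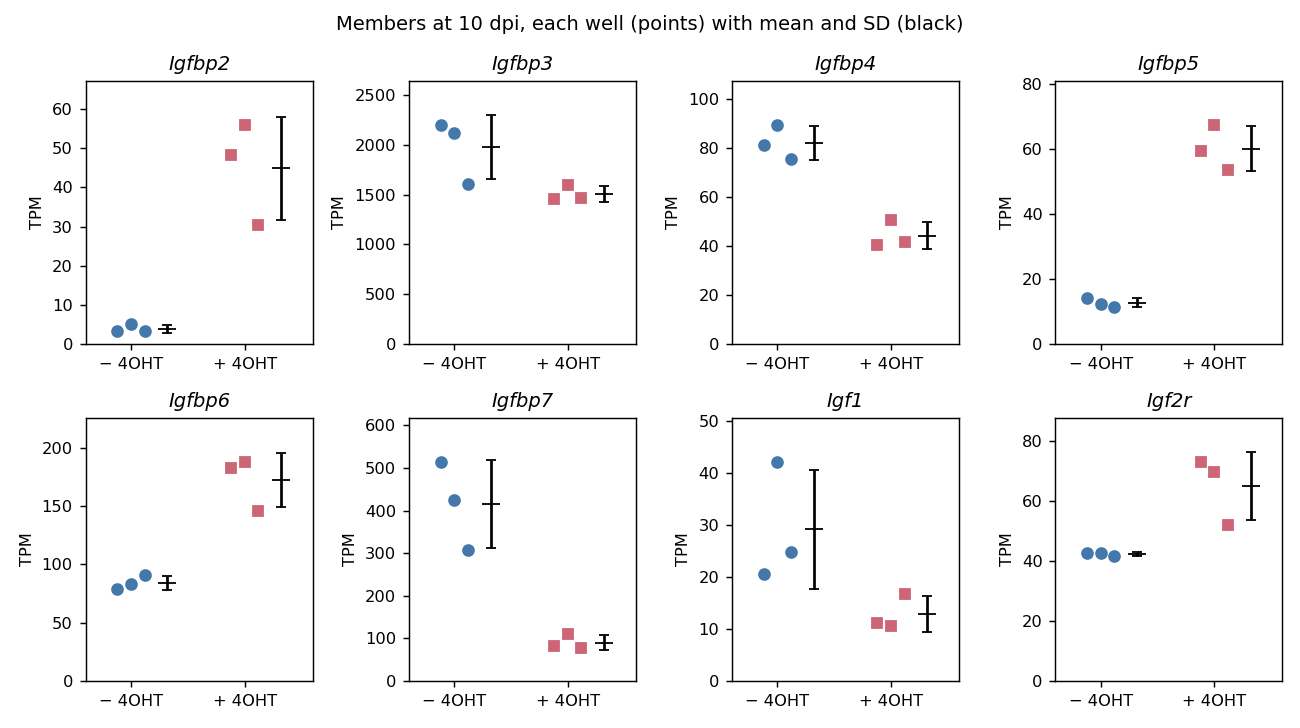
TPM of each of the 8 genes in each well, for the OSKA − 4OHT and OSKA + 4OHT groups, with the mean of each group of 3 wells. Igfbp2 and Igfbp5 lie higher and Igfbp7 lies lower in every OSKA + 4OHT well, while the Igfbp3 wells of the groups almost touch.

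Igfbp2 and Igfbp5 lie beside each other on mouse chromosome 1, and Igfbp7 is the family member with the largest fold decrease, so the sequences before their start sites are shown. Each is the 250 bases upstream of the annotated start, from RefSeq on GRCm38.p6, written 5′ to 3′ on the strand of the gene. The windows are chr1:72824230-72824479 for Igfbp2 on the plus strand, chr1:72874866-72875115 for Igfbp5 on the minus strand and chr5:77408046-77408295 for Igfbp7 on the minus strand. Capitals mark every match, on either strand, to the GC box GGGCGG or the core ACGTG, and the match CACGTG holds ACGTG once on each strand.
Igfbp2: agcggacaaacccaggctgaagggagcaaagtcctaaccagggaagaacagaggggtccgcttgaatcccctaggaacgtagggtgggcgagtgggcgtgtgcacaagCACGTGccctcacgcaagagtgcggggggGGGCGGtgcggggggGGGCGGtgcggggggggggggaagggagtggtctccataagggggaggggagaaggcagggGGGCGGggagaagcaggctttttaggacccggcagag
Igfbp5: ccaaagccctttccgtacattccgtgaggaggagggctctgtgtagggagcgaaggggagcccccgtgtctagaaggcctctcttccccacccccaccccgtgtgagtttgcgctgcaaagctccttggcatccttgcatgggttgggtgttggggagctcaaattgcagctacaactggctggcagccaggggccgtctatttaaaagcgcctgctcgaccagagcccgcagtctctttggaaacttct
Igfbp7: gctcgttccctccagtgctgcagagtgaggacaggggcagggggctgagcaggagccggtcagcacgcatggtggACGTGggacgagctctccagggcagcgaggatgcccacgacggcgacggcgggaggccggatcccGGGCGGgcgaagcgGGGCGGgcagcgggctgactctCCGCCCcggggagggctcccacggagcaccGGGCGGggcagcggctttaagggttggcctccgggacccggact
The Igfbp2 window holds 3 GC boxes and the Igfbp7 window holds 4. The window of Igfbp5 holds neither motif. Of the 32851 windows of this length in the table, 32.7% hold a GC box and 16.6% hold ACGTG, so both motifs are common. The printed windows of Igfbp2 and Igfbp7 hold both motifs, while the window before a second annotated start of Igfbp2 holds neither. Any part of these motifs in the levels was not tested. The GC content was 67.2% for Igfbp2, 58.8% for Igfbp5 and 74.0% for Igfbp7, beside a median of 52.4% over all windows. The windows hold 14, 10 and 26 CpG dinucleotides, respectively, beside a median of 6. The letters GTAAACA, the site of FOXO factors that AKT restrains, and CAAAACA, the core of insulin response elements, were searched on both strands in the windows of all 8 genes and matched none. They occur in 3.17% and 5.56% of all windows. The TATA box TATAAA (12.4% of all windows) was found before Igfbp4 and Igfbp6, and the AP-1 site TGACTCA (4.46%) before a second annotated start of Igfbp2, but neither in the printed windows. A match describes letters and not a bound site.

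Igfbp2 encodes a binding protein that is abundant in the embryo and can also bind integrins. Its level was 3.28, 5.15 and 3.25 TPM in the OSKA − 4OHT wells and 48.4, 56.0 and 30.3 TPM in the OSKA + 4OHT wells. The lowest well with 4OHT thus lay 5.88-fold above the highest well without it. The mean went from 3.89 ± 1.09 to 44.9 ± 13.2 TPM (SD, n = 3), a ratio of 11.5. The log2 fold change of 3.35 (SE 0.306, 95% interval from 2.61 to 4.09) passed with an adjusted p of 0.00464 by limma-trend. The levels without 4OHT rest on few reads, approximately 2.93, 9.08 and 3.29 in the wells. When these reads are pooled over the wells, the ratio per depth has an exact 95% interval from 6.60 to 20.3, which covers counting error only. A run of 33 bases is shared with Igfbp3, which is shorter than a read of 50 bases.

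Igfbp5 encodes the binding protein that is most conserved among vertebrates, which binds to extracellular matrix and forms the ternary complex with the acid-labile subunit. It stood at 14.3, 12.4 and 11.6 TPM without 4OHT and at 59.4, 67.5 and 53.8 TPM with 4OHT. The wells of each group lay close together and far from those of the other group. The mean rose from 12.8 ± 1.41 to 60.2 ± 6.92 TPM (SD, n = 3), which is 4.72-fold. On the log2 scale it rose by 2.19 (SE 0.172, adjusted p = 0.00367, limma-trend).

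Igfbp2 is transcribed from the plus strand at chr1:72824503-72852474 and Igfbp5 from the minus strand at chr1:72857932-72874884 (GENCODE M21, GRCm38), so the genes face each other with their ends 5457 bases apart. No other protein-coding gene lies between them. The nearest tested genes on either side did not pass. Rpl37a, for a ribosomal protein, had a log2 fold change of −0.34 (adjusted p = 0.122, limma-trend). Tns1, for a focal adhesion protein, had −0.48 (adjusted p = 0.445, limma-trend).

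Igfbp6, at chr15:102144362-102149511 on the plus strand, encodes a binding protein that prefers IGF2 over IGF1. It was measured at 78.5, 83.2 and 90.6 TPM without 4OHT and at 182.9, 188.2 and 145.5 TPM with it. All the wells with 4OHT were higher, and replicate 3 was the lowest of them. The mean changed from 84.1 ± 6.09 to 172.2 ± 23.3 TPM (SD, n = 3), with a log2 fold change of 1.02 (SE 0.148, adjusted p = 0.0171, limma-trend). The call was lost in 4 of the 6 fits that leave out 1 well, with adjusted p up to 0.0809, and was kept without OSKA − 4OHT replicate 3 (0.0454) and without OSKA + 4OHT replicate 3 (0.0263).

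Igfbp7, at chr5:77349240-77408041 on the minus strand, encodes a secreted protein with low affinity for IGFs that is deposited in the matrix around vessels and fibroblasts. It was the second most abundant of the family without 4OHT, at 515.0, 424.3 and 308.4 TPM. In the wells with 4OHT it stood at 81.4, 110.8 and 77.5 TPM, and the highest of these was 2.78-fold below the lowest well without 4OHT. The mean fell from 415.9 ± 103.5 to 89.9 ± 18.2 TPM (SD, n = 3), which is 4.63-fold. The fitted log2 fold change was −2.19 (SE 0.234, adjusted p = 0.00697, limma-trend). On the opposite strand, the gene of the RNA polymerase II subunit Polr2b overlaps Igfbp7 and had between 25.8 and 29.7 TPM without 4OHT and between 30.1 and 33.2 TPM with it. A run of 85 bases is shared between their transcripts. The libraries were made with a stranded kit, but a strand setting for Salmon is not given in the sources used here. Whether reads from that run were assigned by strand is therefore not known.

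Igfbp4, at chr11:99041244-99054392 on the plus strand, encodes a binding protein that is cleaved by the metalloprotease PAPP-A. It was at 81.3, 89.3 and 75.4 TPM without 4OHT and at 40.5, 50.5 and 41.6 TPM with it. Every well with 4OHT was below every well without it. The mean fell from 82.0 ± 6.98 to 44.2 ± 5.49 TPM (SD, n = 3), 1.85-fold, with a log2 fold change of −0.89 (SE 0.154, adjusted p = 0.0289, limma-trend). This call was lost in all 6 fits without 1 well, with adjusted p from 0.0628 to 0.109, and without the variance trend (0.0608). Of the 31-base words in Igfbp4 transcripts, 6.18% also occur in transcripts of other genes, so part of its reads may not be unique to it. Pappa, which encodes PAPP-A, went from 8.26 ± 0.598 to 3.99 ± 0.591 TPM with an adjusted p of 0.0662 by limma-trend. Pappa passed with the trimmed mean (0.0368) and with quantile scaling (0.0329). The wells of 4 of the 7 fibroblast markers were lower with 4OHT, as those of Igfbp4 and Igfbp7 were, whereas those of Thy1 were higher and those of Pdgfra and Fap overlapped. The part of these markers in the results was not tested.

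Igfbp3, at chr11:7206086-7213923 on the minus strand, encodes the main carrier of IGFs in serum. It was the most abundant of the 8 genes in every well, at 2198, 2119 and 1608 TPM without 4OHT and 1453, 1593 and 1465 TPM with it. The groups came within 1.01-fold of each other. The log2 fold change was −0.38 (SE 0.137, 95% interval from −0.71 to −0.051, unadjusted p = 0.0297, adjusted p = 0.179, limma-trend), so it did not pass. The value was −0.16 after quantile scaling (adjusted p = 0.617), −0.51 with the trimmed mean (0.0941) and −0.52 without OSKA − 4OHT replicate 3 (0.0568). Its level lay at percentile 99.7 of all tested genes in both groups.

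The 6 binding protein genes together gave 2891, 2733 and 2097 TPM without 4OHT and 1866, 2066 and 1814 TPM with it. Igfbp3 took 76.7% ± 0.738 of this sum without 4OHT and 78.6% ± 1.93 with it (SD, n = 3). The share of Igfbp7 was 16.0% ± 1.61 and 4.67% ± 0.604. The share of Igfbp6 was 3.36% ± 0.848 and 8.98% ± 0.897, and that of Igfbp5 was 0.50% ± 0.0485 and 3.14% ± 0.156. The mixture below Igfbp3 thus differed between the groups. Of the TPM that Igfbp3 did not take, Igfbp2, Igfbp5 and Igfbp6 made up 13.9%, 16.4% and 21.5% in the OSKA − 4OHT wells and 70.5%, 65.9% and 65.8% in the OSKA + 4OHT wells. The summed level of these 3 genes was 100.8 ± 4.64 TPM without 4OHT and 277.3 ± 42.6 TPM with it. The summed level of Igfbp4 and Igfbp7 was 497.9 ± 107.1 and 134.1 ± 23.6 TPM. These shares are described without a test, since they are built from the same values.

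Per transcript length, on the TPM scale, the order of the levels without 4OHT was Igfbp3, Igfbp7, Igfbp6, Igfbp4, Igf2r, Igf1, Igfbp5 and Igfbp2. The wells of Igfbp6 and Igfbp4 overlapped in that order, and so did those of Igf2r and Igf1. With 4OHT the order was Igfbp3, Igfbp6, Igfbp7, Igf2r, Igfbp5, Igfbp2, Igfbp4 and Igf1. The wells of Igf2r, Igfbp5 and Igfbp2 overlapped there, as did those of Igfbp2 and Igfbp4. Among all tested genes, Igfbp2 moved from percentile 26.1 to percentile 78.8 of level and Igfbp7 from percentile 98.1 to percentile 89.4.

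Igf1, at chr10:87858265-87937042 on the plus strand, encodes the ligand itself, which fibroblasts and macrophages produce in many tissues. Its level was 20.6, 42.2 and 24.9 TPM without 4OHT and 11.1, 10.6 and 16.8 TPM with it. All wells with 4OHT were lower, but the wells without 4OHT spread widely. The mean was 29.2 ± 11.4 TPM without and 12.8 ± 3.43 TPM with 4OHT (SD, n = 3). The log2 fold change of −1.12 had a 95% interval from −1.90 to −0.33 and did not pass (unadjusted p = 0.0125, adjusted p = 0.112, limma-trend). The 11 macrophage markers add up to between 159.5 and 204.0 TPM without 4OHT and to between 121.0 and 129.7 TPM with it, 1 of them, Lyz2, fell, and none was listed at 0 in every well. Most of the difference in the sum is that of Lyz2, which went from 95.2 to 51.8 TPM (adjusted p = 0.0299, limma-trend). Csf1r was also lower in every well with 4OHT (3.41 to 1.95 TPM) and did not pass. The wells of the other 9 markers overlapped between the groups, with log2 fold changes from −0.96 for Tyrobp to 0.34 for Cd68, and the median over the 11 markers was −0.38. Their part in the Igf1 values was not tested.

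Igf2r, at chr17:12682406-12769664 on the minus strand, encodes the receptor that takes up IGF2 for degradation and sorts enzymes tagged with mannose 6-phosphate to lysosomes. It was at 42.5, 42.7 and 41.4 TPM without 4OHT and at 73.0, 69.7 and 52.1 TPM with it. The wells without 4OHT were nearly equal, and replicate 3 was the lowest of those with it. The log2 fold change was 0.60 (SE 0.172, 95% interval from 0.19 to 1.01, unadjusted p = 0.0116, adjusted p = 0.108, limma-trend) and did not pass. The antisense RNA gene Airn, which overlaps Igf2r on the opposite strand, had 2.80, 3.75 and 1.26 TPM without 4OHT and 6.85, 5.52 and 2.17 TPM with it. Of the 8 other genes of mannose 6-phosphate sorting, none passed, and the median log2 fold change was 0.34.

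The second ligand gene, Igf2, was at 21.2, 28.1 and 24.6 TPM without 4OHT and at 32.1, 38.8 and 25 TPM with it, with a log2 fold change of 0.36 (adjusted p = 0.414, limma-trend). Igf1r, for the signalling receptor of both ligands, was at 38.7, 39.8 and 37.2 TPM without 4OHT and at 12.1, 13.1 and 9.40 TPM with it. It fell by 1.71 on the log2 scale (SE 0.184, adjusted p = 0.00726, limma-trend) and passed in each fit without 1 well. The wells of Igf1r did not overlap between the groups, and those of Igf2 did. Insr, for the insulin receptor, had 10.8, 10.9 and 10.6 TPM without 4OHT and 10.4, 8.01 and 5.97 TPM with it (log2 fold change −0.42, adjusted p = 0.392, limma-trend). Igfals, for the acid-labile subunit, had 0.53, 0.46 and 5.76 TPM without 4OHT and 4.95, 14.6 and 5.56 TPM with it (adjusted p = 0.216, limma-trend), and its wells overlapped. Igfbp1, Igfbpl1 and the insulin receptor-related gene Insrr had means under 1 TPM over the 6 wells and were not tested. The wells of Igfbpl1, for a protein related to the family, did not overlap between the groups, with a mean of 0.41 TPM without 4OHT and 1.13 TPM with it.

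**Figure D2:**
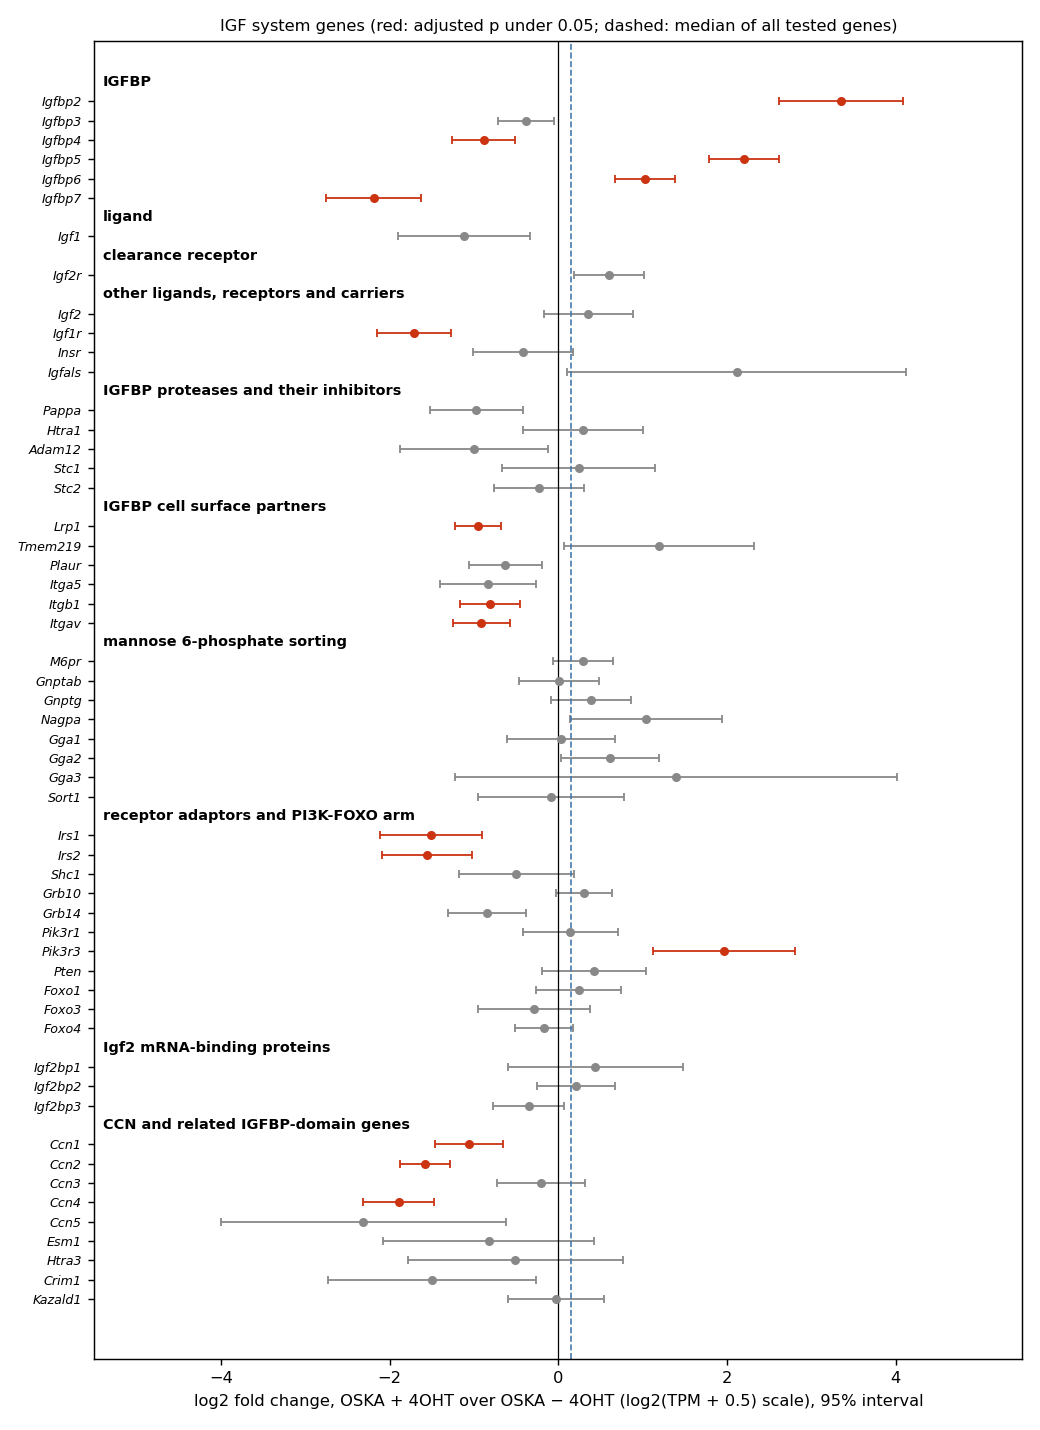
Log2 fold change (OSKA + 4OHT over OSKA − 4OHT, on log2(TPM + 0.5)) of the 8 genes and the other listed genes of the IGF system, with 95% intervals from limma-trend, 3 wells a group. The intervals of Igfbp2 and Igfbp5 lie far above 0 and those of Igfbp7 and Igf1r far below.

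Beyond the 8 genes, 52 genes were listed under the IGF system in a wide sense, and 46 were tested. Of these, 1 rose and 9 fell. Among those that fell, 3 were cell surface partners of binding proteins and 3 were genes that share the IGFBP domain. The genes that passed make up 21.7% of the 46, beside 5.49% of all tested genes, and the median log2 fold change of the 46 was −0.22. The lists were chosen with earlier results of these data known, so this share describes the lists and not the IGF system as a whole. With the trimmed mean, 1 rose and 11 fell with a median of −0.34, and with quantile scaling, 1 rose and 10 fell with a median of −0.38. The gene that rose was Pik3r3, for a regulatory subunit of PI3K, which went from 15.1 to 57.9 TPM (log2 fold change 1.96, adjusted p = 0.0317, limma-trend). Of the adaptors that carry the signal from the receptors, Irs1 fell from 9.12 to 2.90 TPM (adjusted p = 0.0263) and Irs2 from 17.6 to 5.68 TPM (adjusted p = 0.0163). Both are mean levels over 3 wells a group.

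Of the 6 tested cell surface partners of binding proteins, 3 fell. Lrp1, an endocytic receptor that binds IGFBP3, fell from 387.6 to 200.02 TPM (adjusted p = 0.0100, limma-trend). The integrin subunits Itgb1 and Itgav fell from 772.2 to 438.9 TPM (adjusted p = 0.0321) and from 129.0 to 68.3 TPM (adjusted p = 0.0195). Itga5 and Plaur were lower in every well with 4OHT and did not pass. Tmem219 went the other way, from 12.1 to 26.2 TPM, and did not pass (log2 fold change 1.19, adjusted p = 0.212, limma-trend). Of the 9 tested genes that share the IGFBP domain with the family, the matricellular genes Ccn1, Ccn2 and Ccn4 fell, and the others did not pass. Ccn2 went from 745.4 to 248.4 TPM (adjusted p = 0.00367), Ccn4 from 65.0 to 17.2 TPM (adjusted p = 0.00471) and Ccn1 from 512.1 to 244.6 TPM (adjusted p = 0.0220). None of the 5 tested proteases and inhibitors and none of the 3 Igf2 mRNA-binding proteins passed. Igf1r, Ccn2 and Ccn4 passed in each fit without 1 well, whereas Irs1 passed in none of them. Lrp1 did not pass without OSKA + 4OHT replicate 1 (adjusted p = 0.0556, limma-trend) and passed in the other 5. Itgb1, Itgav, Pik3r3 and Ccn1 passed only without OSKA − 4OHT replicate 3, and Irs2 passed without that well or without OSKA + 4OHT replicate 3. Without the variance trend, Itgb1 (adjusted p = 0.0899), Itgav (0.0524), Pik3r3 (0.0549) and Ccn1 (0.0592) did not pass. Itgb1 (0.0557) and Irs1 (0.0660) did not pass without the filter on low values, nor did Itgb1 after quantile scaling (0.0540).

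For each of the 8 genes, the genes whose values over the 6 wells were most like it were found by Pearson's r on log2(TPM + 0.5), among 11035 genes that reached a mean of 5 TPM. These correlations describe 6 wells in 2 groups, which differ in level for most of these genes, and no test was made of them. Igfbp2 was most like Bloc1s2 and the mitotic ubiquitin-conjugating enzyme gene Ube2c (both r = 0.999). Igfbp5 was most like Trim30a and L1td1, an RNA-binding protein gene of pluripotent cells (both 0.997), and Igfbp6 was most like Snx10 (0.997) and the cyclin gene Ccnb1 (0.996). Igfbp7 was most like the oncostatin M receptor gene Osmr (0.999) and the chemokine gene Cxcl16 (0.998), and Igfbp4 was most like the myosin light chain gene Myl12a (0.997) and Plekha4 (0.995). For Igfbp3 they were Habp4 (0.988) and the imprinted RNA gene H19 (0.986), for Igf1 Plcd1 (0.989) and Iqgap1 (0.986), and for Igf2r Hnrnpa3 (0.995) and Stmn1 (0.994).

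**Figure D3:**
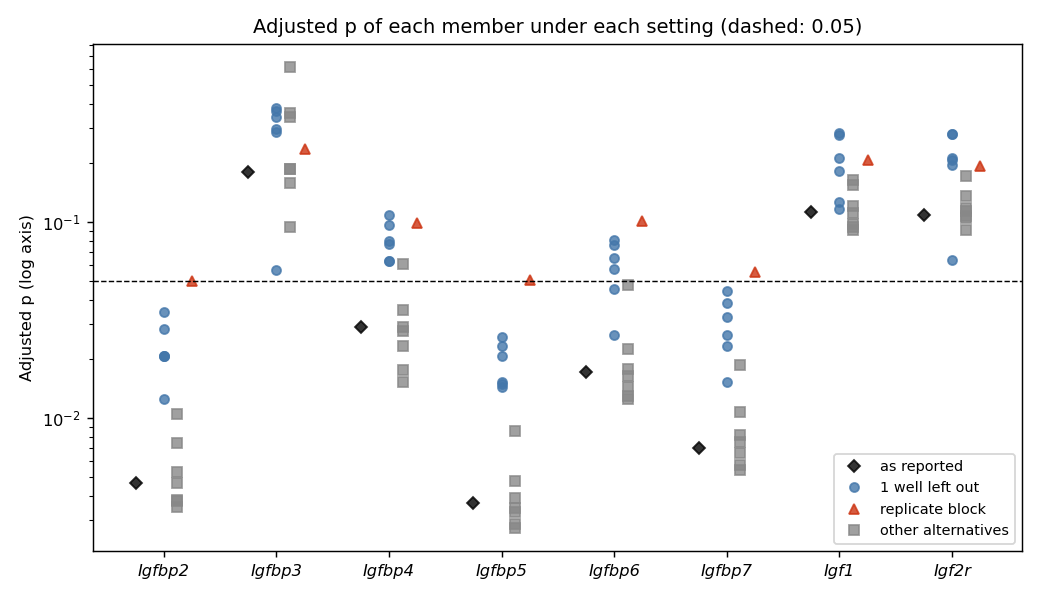
Adjusted p-value from limma-trend for each of the 8 genes under each setting of the analysis on a log axis, with the threshold of 0.05 as a line. Igfbp2, Igfbp5 and Igfbp7 stay below the line in every fit without 1 well, and Igfbp4 lies above it in all of them.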

How the data were processed

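RNA-seq compared 3 OSKA + 4OHT wells with 3 OSKA − 4OHT wells. PolyA libraries, made with a stranded kit, were sequenced as single 50-base reads. The authors trimmed the reads with Trim Galore, quantified them with Salmon and deposited TPM per gene and well, and the versions and the transcript annotation are not given in the sources used here. The authors also deposited their own comparison, which holds log2 values (the fold change and the average level), a score (the F statistic) and a p-value, and these columns were not used.

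Since TPM are not counts, the edgeR test of the study was not run. limma-trend (limma 3.58.1, R 4.3.3) was fitted to log2(TPM + 0.5) for the 15382 genes that reached a mean of 1 TPM, without a block, with Benjamini-Hochberg adjustment. A fold change on this scale understates the change of low genes. The smallest 2-sided p of an exact permutation test with 3 wells against 3 is 0.1, so none was run. Other steps used Python 3.11.15 and pandas 2.3.3. The fit was tested on simulated data, where it recovered only part of the changed genes, so a gene that missed the threshold may still differ. Symbols and positions came from GENCODE M21 on GRCm38 (54097 of 54331 identifiers matched) and promoter sequences from RefSeq on GRCm38.p6 (9 windows for the 8 genes). The approximate depth assumes fragments of 250 bases, and between 36.5% and 40.7% of low values lay within 0.15 of a whole read, against 30% for evenly spread values.

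The 8 genes and the gene lists were chosen with earlier results of these data known. The genes named are the 8 genes, the listed IGF system genes that passed, every other ligand, receptor and carrier, and the 2 genes most like each of the 8. Other genes (Pappa, neighbouring and overlapping genes, markers) were named after their values were seen. Alternatives were other pseudocounts, filters and scalings, no variance trend, the replicate number as a block, and leaving out each well.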

Additional observations from a re-analysis of the deposited data

How the results depend on the processing

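Under all alternatives, the 8 genes kept the direction of their change in 112 of 112 results. Direction could have changed only with the other scalings, since the wells of the groups did not overlap for any of the 8 genes. In 97 of the results they stayed on the same side of the threshold, including every result of Igfbp3, Igf1 and Igf2r, which never passed. The other 15 results lost the call, for Igfbp4, Igfbp5, Igfbp6 or Igfbp7. The count of genes that rose was 542 and ranged from 112 to 318 without 1 well. The count that fell was 303, was 481 with the trimmed mean, and ranged from 63 to 147 without 1 well. The log2 fold change of Igfbp4 missed the threshold without the variance trend (−0.89), and ranged from −0.99 to −0.82 without 1 well. That of Igfbp6 ranged from 0.95 to 1.14 without 1 well. The median over all tested genes was 0.14 on the deposited scale, 0.023 with the trimmed mean and −0.0047 with quantile scaling.

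The replicate numbers were shared between the groups, but the deviations of wells with the same number correlated only weakly (0.024, 0.034 and 0.084, under the 0.1 set for pairing), although 5 of the 6 wells correlated best with their own number, the exception being OSKA + 4OHT replicate 1, and 4 of the 6 correlations between different numbers were negative. With the replicate number as a block, 31 genes rose and 16 fell. Igfbp2 still passed (adjusted p = 0.0499, limma-trend), while Igfbp4 (−0.89), Igfbp5 (2.19), Igfbp6 (1.02) and Igfbp7 (−2.19) kept their log2 fold changes and did not pass, with adjusted p of 0.0988, 0.0505, 0.101 and 0.0555. Of the other IGF system genes that passed, Ccn2 still did (0.0499), and Igf1r (0.0640), Ccn4 (0.0555), Ccn1 (0.0640), Lrp1 (0.0814), Irs2 (0.0811), Itgav (0.0857), Itgb1 (0.105), Irs1 (0.107) and Pik3r3 (0.127) did not. The block leaves fewer degrees of freedom, and any other cause was not tested.

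Depth limits the low values most, as for Igfbp2 without 4OHT.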
